A study of Mus musculus with 10 samples.

Results

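Genes of the G1/S transition and of DNA replication were followed in forelimb buds of mouse embryos with and without a conditional knockout of Cxxc1, which encodes a CpG-binding protein of the SET1 histone methyltransferase complexes. The members were a named set of 40 genes, matched by symbol to 40 of the 47729 gene IDs in the count table. All 40 passed the filter on low counts. RNA of 10 buds was sequenced, 5 from control and 5 from knockout embryos of embryonic day 11.5 to 12, from litters named A to D. All 5 knockouts carried the Cre marked Prx1Cre_+ and 2 floxed alleles (Cxxc1fl_fl). Among the controls, control 1 carried Prx1Cre_+ with Cxxc1fl_wt, controls 2 and 4 were CreWT with Cxxc1fl_WT, control 3 was CreWT with Cxxc1fl_fl, and the Cre of control 5 (Cxxc1fl_fl) is marked with a question mark. Every embryo therefore carried at least 1 floxed allele, and Prx1Cre was marked as present without doubt in only 1 control. Each group had 2 embryos of litter A and 1 of each of the other litters. By somite stage, controls 1 to 5 were at 51, 51, 50, 49 and 50 and knockouts 1 to 5 at 51, 49, 50, 51 and 49, so that embryos of 1 litter could differ by 2 somites. Prx1Cre acts in limb bud mesenchyme, and cells of the bud such as ectoderm, blood and endothelium lie outside its reach.

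DNA replication is prepared in G1, when the origin recognition complex, Cdc6 and Cdt1 load the ring-shaped MCM helicase onto DNA. At the start of S phase the helicase is switched on by Cdc45 and the GINS complex, and the polymerases then copy DNA with the help of a sliding clamp, its loader, single-strand binding proteins and a supply of deoxynucleotides. Many of these genes are transcribed together under E2F transcription factors, which are held back by the retinoblastoma family in resting cells. In a limb bud of this age most mesenchymal progenitors still divide.

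The replication genes were close to their control levels in the knockout, and those that changed did so in both directions. Of the 40 members, 4 rose (Dut, Rfc2, Fen1 and Orc6), 7 fell (Gins3, Tyms, Rrm1, Prim1, Pcna, Tk1 and Rfc3) and 29 missed the threshold of edgeR's quasi-likelihood test, a Benjamini-Hochberg adjusted p below 0.05. The 11 that passed are 27.5% of the members, where the same test called 35.2% of all 20562 genes tested, 18.1% higher and 17.1% lower, and 44.4% of the 7376 genes at least as abundant as the lowest member. Log2 fold changes, knockout over control, ran from -0.41 for Gins3 to 0.29 for Dut, with a median of -0.06 over the members and 0.00 over all genes. None of the 40 members had a log2 fold change beyond 0.5 in either direction, against 22.8% of all genes and 8.62% of the genes at least as abundant as the lowest member. The 95% interval of the fold change lay within 0.5 log2 units of no change, a factor of 1.41, for 38 members, Orc1 and Gins3 being the exceptions, and within 0.25 log2 units for 20. In bulk tissue, fewer cells that express a gene and less of its RNA in each cell cannot be told apart.

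**Figure D1:**
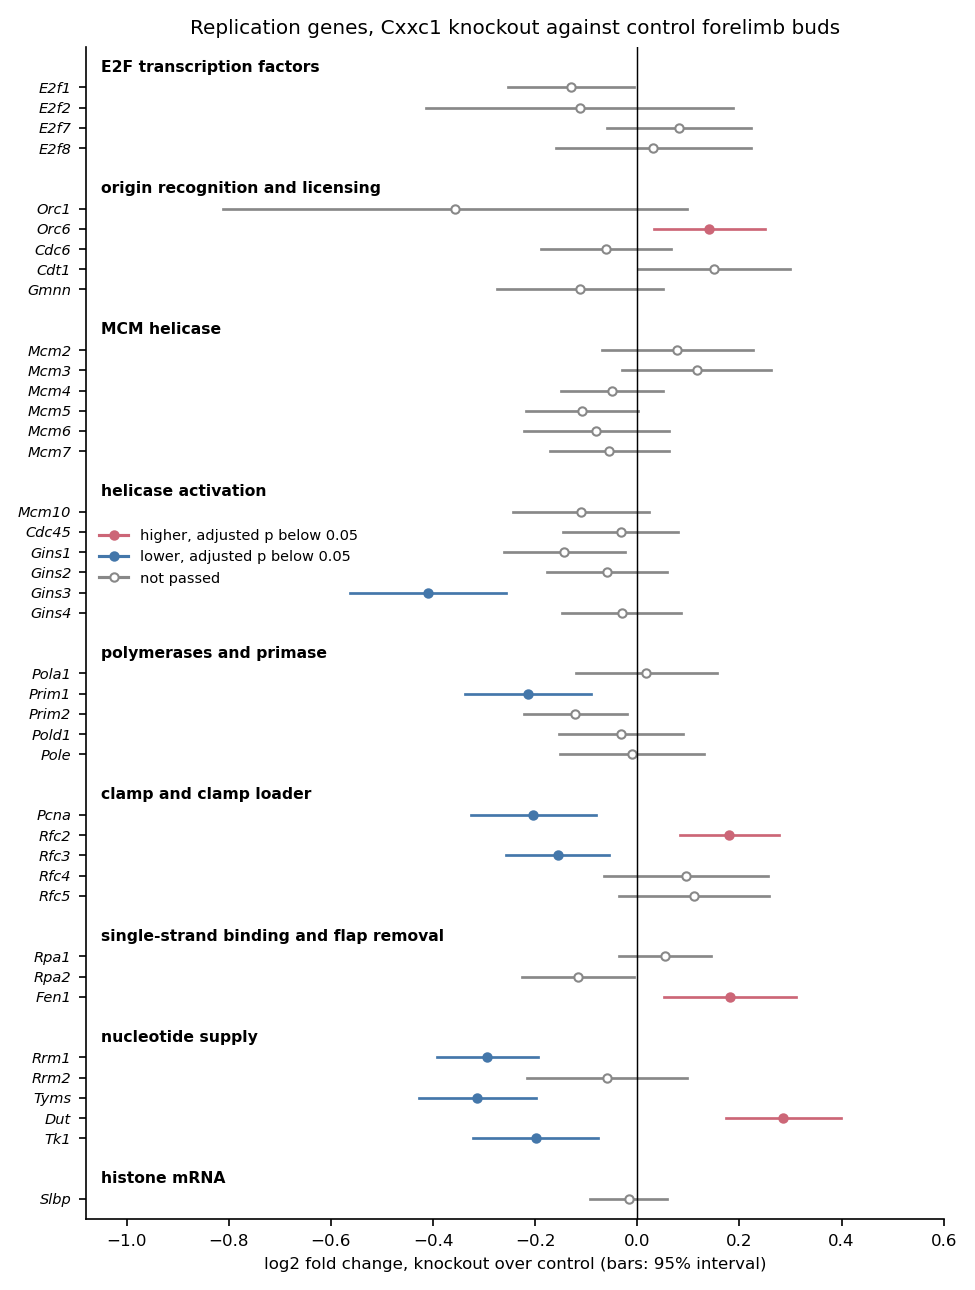
Log2 fold change of each of the 40 members, knockout over control, in order of role; bars are 95% intervals of edgeR's quasi-likelihood fit, filled points passed an adjusted p below 0.05. Gins3 lies farthest to the left and Dut farthest to the right, and all 40 estimates lie within 0.5 log2 units of 0.

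The libraries held 33274855 to 49881126 estimated counts, and each member 731 to 21550 counts per library. Levels are CPM, counts scaled to a common library total with TMM factors, listed from replicate 1 to replicate 5, with means ± SD and n = 5 per group. Cxxc1 itself averaged 96.7 ± 6.88 CPM in controls and 75.2 ± 1.23 CPM in knockouts, without overlap of the groups, a log2 fold change of -0.36 (edgeR adjusted p = 0.000144). Tbx5, a forelimb factor, averaged 187.6 CPM in the control group and 88.1 CPM in the knockout group, and the hindlimb genes Tbx4 and Pitx1 were at 11.4 and 1.25 CPM in controls, as in forelimb tissue. Markers of several cell types moved with the groups. All 12 macrophage markers rose, their summed level being 62.9 to 79.1 CPM in controls and 229 to 271 CPM in knockouts, and all 7 erythroid markers rose, from 2326 to 2731 CPM in controls to between 2843 and 5813 CPM in knockouts. Rises were also called for 5 of 6 endothelial markers (224 to 263 and 279 to 327 CPM), 4 of 7 ectodermal markers (276 to 447 and 486 to 579 CPM) and 3 of 4 muscle precursor markers (50.8 to 65.1 and 45.2 to 105.0 CPM). Of 6 limb mesenchyme markers 3 fell (1880 to 2027 and 1123 to 1357 CPM), and of 3 neural crest and Schwann precursor markers 1 fell (12.1 to 15.8 and 12.3 to 15.2 CPM). None of these markers was at 0 in any library. All 11 listed p53 targets, which include genes of growth arrest, rose, from 343 to 376 CPM in sum in controls to between 1628 and 1878 CPM in knockouts. Rrm2b, a p53-induced gene described below, was not on that list. The lists were chosen with earlier results of these data known, so these counts are a description and not a test. The part of these shifts in the replication gene values was not tested.

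The promoters of these genes held the letters preferred by the E2F family in a larger share than promoters at large. RefSeq windows from 250 bases before to 50 bases after the transcript start (GRCm38.p6) were on hand for 32 members, and not for Gmnn, Mcm4, Gins1, Gins2, Gins4, Prim2, Pole and Rfc2. The E2F letters searched were TTTCCCGC, TTTGGCGC, TTTCGCGC and TTTGCCGC on both strands, with overlapping matches allowed. They stood in 13 of the 32 members (40.6%), namely Cdc6, Cdt1, E2f2, E2f7, Gins3, Mcm3, Mcm5, Mcm6, Mcm7, Orc1, Pola1, Pold1 and Rfc3, against 2.6% of 27025 genes with a window and 4.25% of the tested genes with one. CCAAT, the NF-Y box, stood in 22 members (68.8%) and 41.1% of all genes, and 10 members held both, against 1.26% of all genes. In 1 member window the E2F and CCAAT letters overlap. TTTGAA, a core of the CHR element known from mitotic genes, stood in 6 members (18.8%). It stood in 20.2% of all genes and in 15% of the tested genes with a window. Of 23 G2/M genes with a window, 73.9% held it and 4.35% held the E2F letters. The E2F letters were found in 2 of the 7 members that fell (Gins3 and Rfc3), in none of the 3 risen members with a window, and in 11 of the 22 others with a window. No test was made on these counts, and a match is a description of the letters, not a binding site.

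The windows of 5 members are shown from 250 bases before to 20 bases after the start, 5′ to 3′ on the strand of the gene, with the E2F and CCAAT letters of either strand in capitals. Gins3 (chr8:95633309-95633578, plus strand) and Rfc3 (chr5:151651189-151651458, minus strand) are the members that fell and hold E2F letters. Mcm5 (chr8:75109259-75109528, plus strand) and Mcm6 (chr1:128359686-128359955, minus strand) hold several such letters and did not pass the test. Rrm1 (chr7:102441445-102441714, plus strand) fell and holds CCAAT only.
Gins3: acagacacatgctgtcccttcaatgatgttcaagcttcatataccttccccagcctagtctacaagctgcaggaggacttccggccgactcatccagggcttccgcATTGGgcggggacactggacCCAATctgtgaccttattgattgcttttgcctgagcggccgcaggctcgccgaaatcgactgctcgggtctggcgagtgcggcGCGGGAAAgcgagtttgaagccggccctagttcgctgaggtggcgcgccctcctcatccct
Rfc3: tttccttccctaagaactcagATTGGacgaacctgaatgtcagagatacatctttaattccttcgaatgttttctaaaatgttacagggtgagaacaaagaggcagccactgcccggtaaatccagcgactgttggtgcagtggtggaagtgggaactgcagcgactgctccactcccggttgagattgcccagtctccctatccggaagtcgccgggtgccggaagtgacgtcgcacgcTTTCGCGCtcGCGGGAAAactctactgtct
Mcm5: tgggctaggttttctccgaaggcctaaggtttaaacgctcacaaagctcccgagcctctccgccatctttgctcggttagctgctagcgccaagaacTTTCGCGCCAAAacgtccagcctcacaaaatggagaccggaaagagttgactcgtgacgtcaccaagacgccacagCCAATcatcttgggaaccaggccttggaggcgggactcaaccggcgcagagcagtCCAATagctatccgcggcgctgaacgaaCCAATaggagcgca
Mcm6: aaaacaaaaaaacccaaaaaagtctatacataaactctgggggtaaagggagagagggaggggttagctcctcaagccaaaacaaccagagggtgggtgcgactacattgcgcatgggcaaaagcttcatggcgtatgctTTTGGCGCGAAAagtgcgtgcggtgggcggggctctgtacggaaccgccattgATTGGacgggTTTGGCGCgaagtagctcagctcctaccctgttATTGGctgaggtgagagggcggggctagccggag
Rrm1: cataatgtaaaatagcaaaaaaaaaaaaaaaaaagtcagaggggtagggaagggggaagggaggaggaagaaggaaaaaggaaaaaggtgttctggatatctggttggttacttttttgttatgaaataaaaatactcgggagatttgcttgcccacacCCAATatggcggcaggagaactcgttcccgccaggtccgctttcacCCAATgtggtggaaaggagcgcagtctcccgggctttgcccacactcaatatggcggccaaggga
In Mcm5 and Mcm6 the first 2 matches overlap, and in Rfc3 the matches lie at the start site itself, 10 bases before it and on its first base. The E2F letters of Gins3 begin 41 bases before the start.

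The enzymes that supply deoxynucleotides changed in opposite directions. Of 5 genes, 3 fell (Rrm1, Tyms and Tk1), 1 rose (Dut) and 1 did not pass (Rrm2). Rrm1 (ENSMUSG00000030978, chromosome 7, 102441695 to 102469771, plus strand), the large subunit of ribonucleotide reductase, was at 459, 441, 409.7, 449.7 and 453 CPM in controls and at 357, 344, 384, 355 and 365 CPM in knockouts. Every knockout library lay below every control. The means were 442 ± 19.5 CPM in controls and 361 ± 15.1 CPM in knockouts, so that the level fell by 18.4%, with a log2 fold change of -0.29 (SE 0.05, 95% interval -0.39 to -0.19, edgeR adjusted p = 0.000356). An exact permutation test of the CPM, two-sided, gave p = 0.00794, the lowest value possible with 5 against 5. The gene of the small subunit, Rrm2, was at 276, 264, 259, 326 and 281 CPM in controls and at 239.6, 263, 293, 293 and 261 CPM in knockouts. Its groups overlapped, and its log2 fold change was -0.06 (95% interval -0.22 to 0.10, edgeR adjusted p = 0.574). Per kilobase of the longest principal transcript the pair stood at 111 and 128 CPM in controls and at 90.3 and 123 CPM in knockouts. Rrm2b, the p53-induced small subunit and no member, chosen after its values were seen, averaged 11.6 CPM in the control group and 10.1 CPM in the knockout group and did not pass (edgeR adjusted p = 0.338).

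Tyms (ENSMUSG00000025747, chromosome 5, 30058202 to 30073617, minus strand), thymidylate synthase, which makes dTMP from dUMP, was at 148, 145, 138, 163 and 162 CPM in controls and at 122, 119, 130.1, 121 and 117 CPM in knockouts. The groups did not overlap. Its log2 fold change was -0.31 (SE 0.05, 95% interval -0.43 to -0.20, edgeR adjusted p = 0.000684). Tk1, the thymidine kinase of the salvage route to dTMP, was at 74.8, 67.3, 73.6, 78.99 and 74.2 CPM in controls and at 64.2, 63.97, 69.3, 65.98 and 58.03 CPM in knockouts. Only knockout 3 reached above the lowest control, control 2, and the log2 fold change was -0.20 (SE 0.06, edgeR adjusted p = 0.0154). Dut (ENSMUSG00000027203, chromosome 2, 125247190 to 125258608, plus strand), the dUTPase that keeps uracil out of DNA and yields dUMP, was at 120.0, 113, 115, 136 and 119 CPM in controls and at 147, 142, 152, 151 and 144 CPM in knockouts. All knockouts exceeded all controls, control 4 being the highest control. Its log2 fold change of 0.29 (SE 0.05, 95% interval 0.17 to 0.40, edgeR adjusted p = 0.0011) was the largest rise among the members. Dut was higher and Tyms, which uses its product, lower in each of the 4 litters. The call of Tk1 was lost in 5 alternatives, namely with libraries scaled by size only, without litter A, C or D, and with only the controls labelled without Cre (edgeR adjusted p = 0.0518 to 0.0725).

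**Figure D2:**
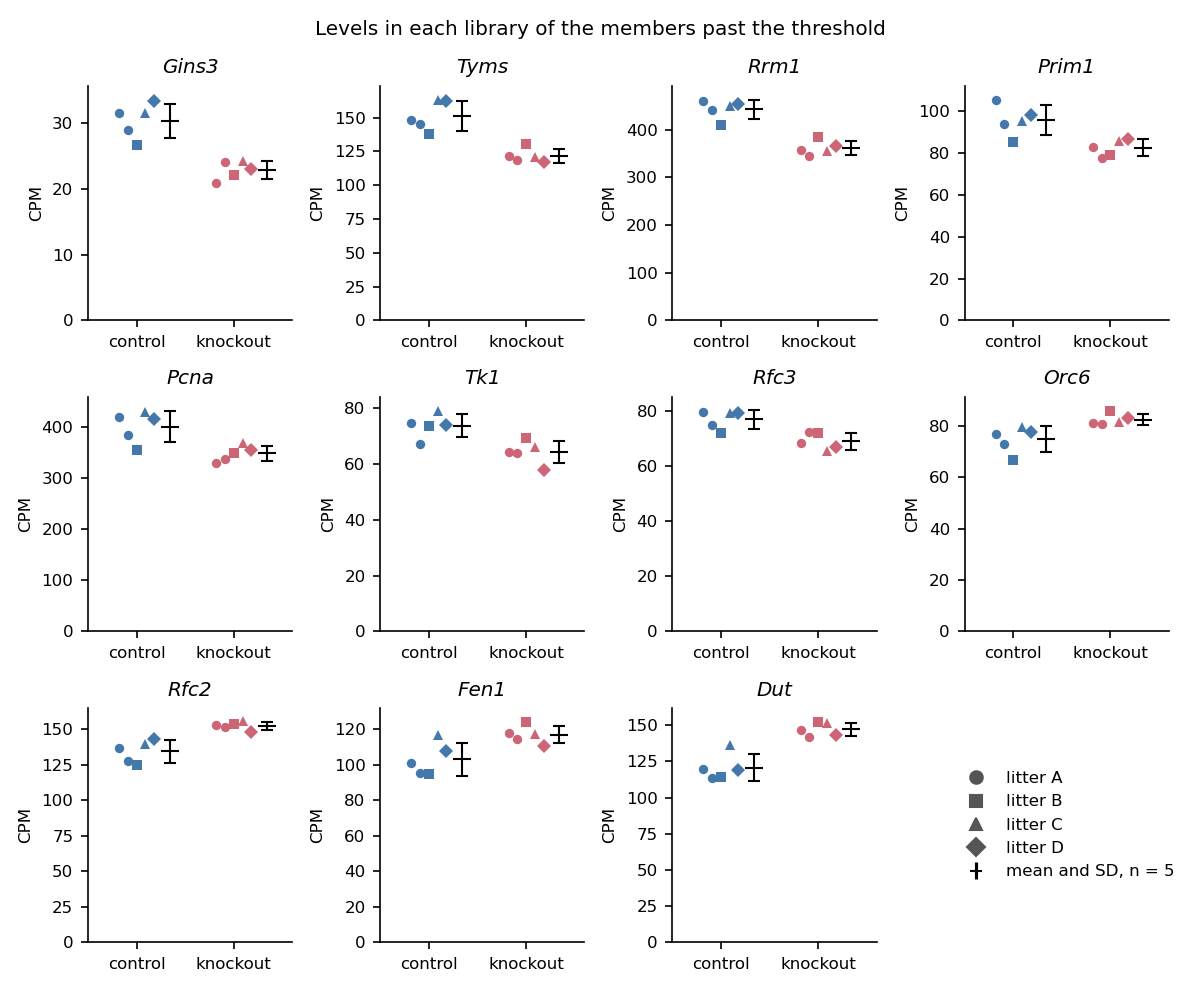
CPM of the 11 members that passed the test, in each of the 5 control and 5 knockout libraries; each point is 1 library, its shape the litter, and the bars are group means with SD. The groups stand apart for Gins3, Rrm1, Tyms, Dut, Rfc2 and Orc6 and overlap for the other 5.

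Among the clamp and its loader, 2 genes fell (Pcna and Rfc3), 1 rose (Rfc2) and 2 did not pass (Rfc4 and Rfc5). Pcna (ENSMUSG00000027342, chromosome 2, 132249162 to 132253314, minus strand), the sliding clamp that tethers the polymerases, was the most abundant member per kilobase, at 265 CPM in controls. Its CPM were 421, 385, 355, 430.5 and 416 in controls and 331, 339, 349.6, 369 and 356 in knockouts. Knockout 4 and knockout 5 lay above control 3, the lowest control, and the log2 fold change was -0.20 (SE 0.06, 95% interval -0.33 to -0.08, edgeR adjusted p = 0.0144). That call was lost without litter A, with only the controls labelled without Cre, and without control 1 and knockout 3, which had high Xist (edgeR adjusted p = 0.0606 to 0.183). Pcna-ps1 and Pcna-ps2, annotated pseudogenes of Pcna, have their own entries in the count table. Whether they share reads with Pcna was not tested. The clamp loader is a ring in which the products of Rfc2 to Rfc5 sit beside the large subunit, and its genes changed in both directions. Rfc2 rose from 137, 127, 125, 139.7 and 143 CPM in controls to 153, 151, 153, 156 and 148 CPM in knockouts. Its groups did not overlap (log2 fold change 0.18, SE 0.04, edgeR adjusted p = 0.00746). Rfc3 was at 79.6, 75.1, 72.1, 79.3 and 79.3 CPM in controls and at 68.5, 72.6, 72.3, 65.7 and 66.97 CPM in knockouts. Knockouts 2 and 3 lay above control 3, the lowest control (log2 fold change -0.16, SE 0.05, edgeR adjusted p = 0.0206). The call of Rfc3 was lost in 7 of 25 alternatives. Among them were those without knockout 4 (-0.14, edgeR adjusted p = 0.058) and with the replicate number as a block (-0.16, edgeR adjusted p = 0.0659). It was also lost with libraries scaled by size only (-0.10, edgeR adjusted p = 0.127), without litter A, C or D (edgeR adjusted p = 0.0899 to 0.112), and with only the controls labelled without Cre (-0.13, edgeR adjusted p = 0.115). Rfc5 was at 85.5, 76.5, 80.04, 91.99 and 86.5 CPM in controls and at 92.6, 90.6, 99.8, 93.4 and 78.2 CPM in knockouts, with overlap (log2 fold change 0.11, edgeR adjusted p = 0.23). It passed at 0.16 without knockout 5, its lowest knockout (edgeR adjusted p = 0.05, just inside the threshold). Rfc4 had a log2 fold change of 0.10 (edgeR adjusted p = 0.353). Opposite-strand genes share 15.1% of the exon bases of Rfc2 (Lat2), 12.7% of Rfc4 (Eif4a2) and 10.7% of Rfc5 (Wsb2). In controls and then knockouts, Lat2 averaged 1.66 and 1.15 CPM, Eif4a2 352 and 273 CPM, and Wsb2 32.6 and 34.9 CPM. Lat2 (log2 fold change -0.53, edgeR adjusted p = 0.0299) and Eif4a2 were called lower. The sources used here do not say whether reads were assigned by strand.

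The helicase core did not pass the test in any of its 6 genes, Mcm2 to Mcm7, whose log2 fold changes ran from -0.11 (Mcm5) to 0.12 (Mcm3). Mcm2 was at 271, 263, 291, 272 and 337 CPM in controls and at 297, 277, 312, 314 and 314 CPM in knockouts. All knockouts lay within the range of the controls, with a log2 fold change of 0.08 (95% interval -0.07 to 0.23, edgeR adjusted p = 0.415). Mcm7, the most abundant, was at 369.9, 358, 356, 389 and 412 CPM in controls and at 359, 333, 385, 373 and 366 CPM in knockouts, again with overlap (log2 fold change -0.06, 95% interval -0.17 to 0.06, edgeR adjusted p = 0.471). The sum over the 6 genes was 1911 ± 132 CPM in controls and 1883 ± 70.0 CPM in knockouts. Per kilobase the 6 subunits of the hexamer stood within a narrow band in controls, from 81.1 CPM for Mcm4 to 127 CPM for Mcm7. The 95% intervals of the 6 genes reached down to -0.22 for Mcm6 and up to 0.26 for Mcm3.

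Of the 6 genes that switch the helicase on, Gins3 fell and 5 did not pass. Gins3 (ENSMUSG00000031669, chromosome 8, 95633453 to 95645060, plus strand) encodes a subunit of the 4-part GINS ring that joins MCM and Cdc45 in the active helicase. It was at 31.5, 28.9, 26.8, 31.5 and 33.4 CPM in controls and at 20.9, 24.1, 22.1, 24.2 and 23.1 CPM in knockouts. The highest knockout, knockout 4, lay below the lowest control, control 3. Gins3 had the largest fall among the members. It fell by 24.7%, with means of 30.4 ± 2.58 CPM in controls and 22.9 ± 1.41 CPM in knockouts and a log2 fold change of -0.41 (SE 0.07, 95% interval -0.56 to -0.26, edgeR adjusted p = 0.000724). Its partners did not pass, at log2 fold changes of -0.14 for Gins1 (edgeR adjusted p = 0.0588), -0.06 for Gins2 (edgeR adjusted p = 0.438) and -0.03 for Gins4 (edgeR adjusted p = 0.705). Whether Gins3 differs from its partners in fold change was not tested. Per kilobase Gins3 was the lowest of the 4 in controls, at 12.1 CPM against 37.3, 19.8 and 42.7 CPM for Gins1, Gins2 and Gins4. Gins1 fell by 0.18 with an edgeR adjusted p of 0.0205 when control 2 was left out. Mcm10, which helps to start the helicase, was at 103, 91.6, 89.99, 101 and 102 CPM in controls and at 84.1, 89.1, 84.9, 102 and 92.03 CPM in knockouts, with overlap (log2 fold change -0.11, edgeR adjusted p = 0.188), and Cdc45 had a log2 fold change of -0.03 (edgeR adjusted p = 0.672). The exons of Gse1, which runs antisense, cover 67.3% of those of Gins2 by length, and Gse1 was at 36.1 ± 6.16 CPM in the control group and 42.2 ± 5.88 CPM in the knockout group.

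Of 5 licensing genes, Orc6 rose and 4 did not pass. Orc6, a subunit of the origin recognition complex, was at 76.8, 72.8, 66.8, 79.7 and 77.6 CPM in controls and at 81.1, 80.7, 85.9, 81.3 and 82.98 CPM in knockouts. The groups did not overlap, but the lowest knockout and the highest control differed by little (log2 fold change 0.14, SE 0.05, edgeR adjusted p = 0.0458). This is the least firm of the calls. It was lost when any 1 library other than control 4 was left out (0.10 to 0.15, edgeR adjusted p = 0.0538 to 0.104) and with litter (0.14, edgeR adjusted p = 0.0623) or replicate number (0.14, edgeR adjusted p = 0.0879) as a block or somite stage as a term (0.14, edgeR adjusted p = 0.0673). Orc1, the largest subunit of that complex, varied more between libraries than any other member, at 52.6, 32.8, 32.5, 35.5 and 27.5 CPM in controls and 38.7, 25.96, 31.9, 16.8 and 27.98 CPM in knockouts. Control 1 was the highest and knockout 4 the lowest library, and its log2 fold change of -0.36 had the widest interval among the members (-0.81 to 0.10, edgeR adjusted p = 0.214). Cdc6, which joins the origin complex to load MCM, was at 79.9, 70.7, 66.01, 78.6 and 73.7 CPM in controls and at 66.9, 68.2, 74.3, 74.3 and 70.01 CPM in knockouts (log2 fold change -0.06, edgeR adjusted p = 0.464). Cdt1, its partner in loading, was at 56.8, 57.8, 66.8, 68.3 and 67.4 CPM in controls and at 71.03, 68.1, 76.99, 72.04 and 63.9 CPM in knockouts (log2 fold change 0.15, edgeR adjusted p = 0.11). Gmnn, which encodes geminin, the inhibitor of Cdt1, was at 59.9, 51.8, 50.9, 62.2 and 54.98 CPM in controls and at 50.8, 48.03, 59.2, 53.01 and 47.9 CPM in knockouts (log2 fold change -0.11, edgeR adjusted p = 0.28). For all 3 genes the groups overlapped.

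Among the polymerases and primase, Prim1 fell and 4 genes did not pass. Prim1, the catalytic primase subunit that lays down RNA primers, was at 105, 93.95, 85.4, 95.6 and 98.1 CPM in controls and at 83.1, 77.5, 79.2, 85.8 and 86.9 CPM in knockouts. Knockouts 4 and 5 lay above control 3, the lowest control, and the log2 fold change was -0.21 (SE 0.06, 95% interval -0.34 to -0.09, edgeR adjusted p = 0.0113). Its call was lost in the same 3 alternatives as that of Pcna (edgeR adjusted p = 0.0633 to 0.181). Prim2, the regulatory primase subunit, had a log2 fold change of -0.12 that did not pass (edgeR adjusted p = 0.06), but passed when control 3 was left out (-0.15, edgeR adjusted p = 0.0197). The catalytic subunits of the 3 replicative polymerases were near 0, at log2 fold changes of 0.02 for Pola1, -0.03 for Pold1 and -0.01 for Pole. Pole, the leading-strand polymerase, was at 143, 131, 142, 162 and 132 CPM in controls and at 141, 151, 140.1, 146 and 126 CPM in knockouts, with overlap (95% interval -0.15 to 0.13, edgeR adjusted p = 0.917).

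Of the genes of single-strand binding and flap removal, Fen1 rose and Rpa1 and Rpa2 did not pass. Fen1, the nuclease that trims Okazaki fragments, was at 101, 95.2, 94.8, 117 and 108 CPM in controls and at 118, 115, 124, 117 and 111 CPM in knockouts. The groups overlapped, since control 4 exceeded knockouts 2 and 5 (log2 fold change 0.18, SE 0.06, edgeR adjusted p = 0.0315). The call of Fen1 was lost in 11 of 25 alternatives. Among them were those without control 1, 2 or 3 or without knockout 1, 3 or 4, each left out alone (0.15 to 0.18, edgeR adjusted p = 0.0616 to 0.0834). It was also lost without litter A (0.14, edgeR adjusted p = 0.292), without litter B (0.13, edgeR adjusted p = 0.142) and without the 2 libraries with high Xist (0.15, edgeR adjusted p = 0.133). The remaining losses came with only the controls labelled without Cre (edgeR adjusted p = 0.0821) and without a filter on low counts (edgeR adjusted p = 0.0565). Gm10143, an antisense gene, covers 78.8% of the exon bases of Fen1. It averaged 4.86 CPM in the control group and 6.25 CPM in the knockout group and was itself called higher (log2 fold change 0.36, edgeR adjusted p = 0.0474). Reads of the pair cannot be told apart without strand. Rpa1, the largest subunit of the single-strand binding complex, was at 207, 202, 206, 225 and 219 CPM in controls and at 219, 213, 225, 225 and 218 CPM in knockouts, with overlap (log2 fold change 0.05, edgeR adjusted p = 0.345). Rpa2 had a log2 fold change of -0.12 (edgeR adjusted p = 0.0958), the opposite sign to Rpa1, with neither past the threshold.

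None of the 4 E2F genes passed. E2f1, an activator of the replication genes, was at 44.9, 42.02, 45.8, 51.2 and 45.2 CPM in controls and at 42.9, 42.5, 42.02, 42.9 and 39.1 CPM in knockouts. The groups overlapped, knockout 5 being the lowest library, and the log2 fold change was -0.13 (95% interval -0.25 to -0.01, edgeR adjusted p = 0.0978). E2f7, an atypical E2F that represses them late in S phase, was at 61.8, 60.7, 70.97, 72.4 and 65.6 CPM in controls and at 71.4, 71.4, 76.1, 69.2 and 62.8 CPM in knockouts, also with overlap (log2 fold change 0.08, edgeR adjusted p = 0.369). E2f2, another activator, and E2f8, another repressor, had log2 fold changes of -0.11 and 0.03. Slbp, which binds the stem-loop of histone mRNAs, was at 148, 151, 142, 148 and 152 CPM in controls and at 144, 147, 147, 144 and 150.3 CPM in knockouts, with the lowest coefficient of variation of any member in controls, 2.67% (log2 fold change -0.02, 95% interval -0.09 to 0.06, edgeR adjusted p = 0.748).

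**Figure D3:**
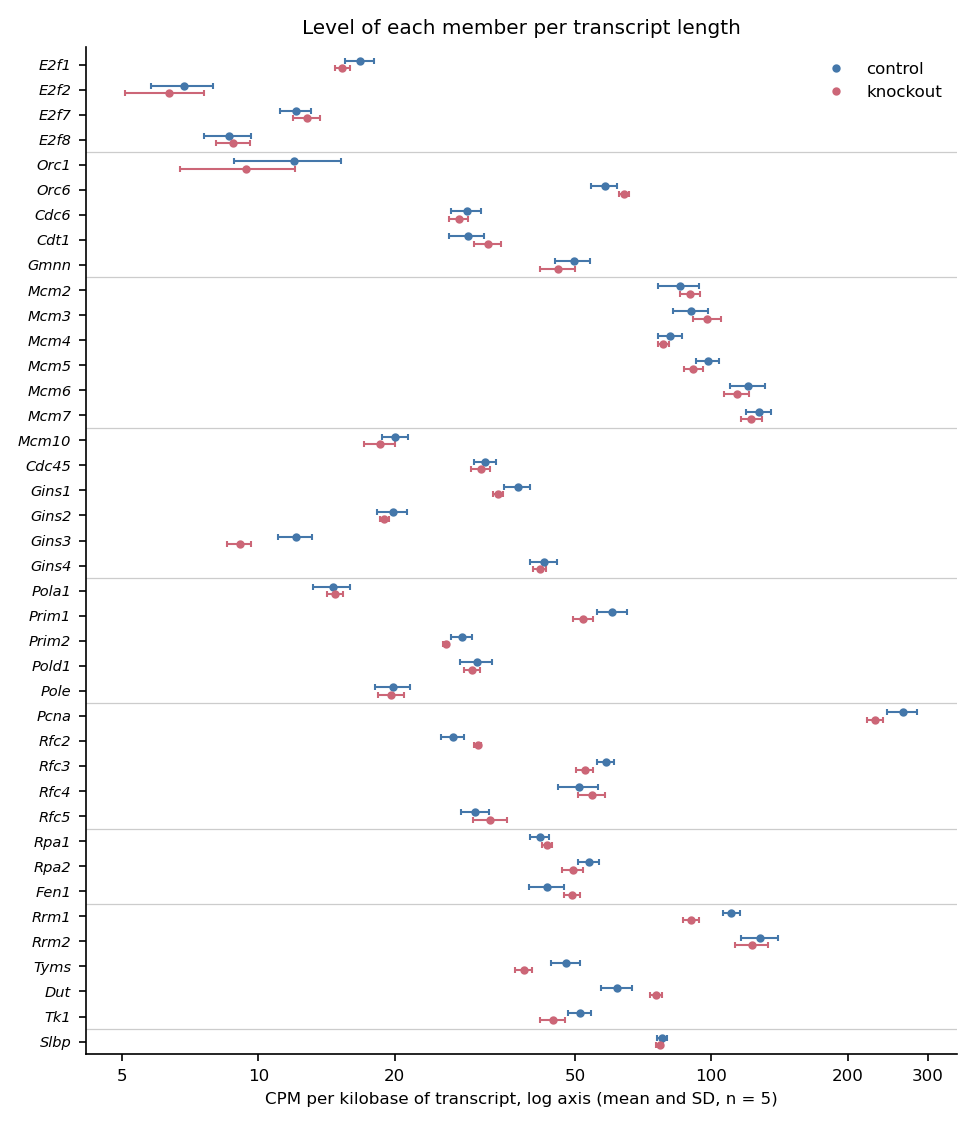
Mean level of each member in CPM per kilobase of its longest principal transcript, on a log axis, in controls and knockouts (bars are SD, n = 5 each). Pcna stands highest and E2f2 lowest, and the pairs of group means lie close together for every member.

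Beside the members, 58 other replication genes gave a similar share of calls, with 9 higher, 7 lower and 42 that did not pass (27.6%, median log2 fold change 0.00). The 5 with the smallest adjusted p among those that fell were Rbl1, the retinoblastoma-family repressor p107 (-0.34, edgeR adjusted p = 0.000205), Cdc25a, a phosphatase that activates S-phase kinases (-0.30, edgeR adjusted p = 0.00333), the fork proteins Timeless (-0.19, edgeR adjusted p = 0.00699) and Clspn (-0.24, edgeR adjusted p = 0.0121), and the polymerase epsilon subunit Pole2 (-0.19, edgeR adjusted p = 0.0208). Among those that rose they were Dck, a kinase of deoxynucleoside salvage (0.27, edgeR adjusted p = 0.000319), Shmt1, which feeds one-carbon units to thymidylate synthesis (0.38, edgeR adjusted p = 0.000723), E2f4, a repressive E2F (0.32, edgeR adjusted p = 0.00189), the polymerase delta subunit Pold4 (0.42, edgeR adjusted p = 0.0066) and the flap nuclease Dna2 (0.15, edgeR adjusted p = 0.00828). Of 7 further genes of nucleotide metabolism 3 rose, 0 fell and 4 did not pass. Among the cyclins of S-phase entry, Ccne1 was at 55.7, 57.4, 54.2, 63.7 and 58.4 CPM in controls and at 60.4, 63.4, 72.7, 69.6 and 64.99 CPM in knockouts (log2 fold change 0.19, edgeR adjusted p = 0.0269). That call was lost without control 1, 2 or 3 or knockout 3 or 4 (0.16 to 0.19, edgeR adjusted p = 0.0573 to 0.0704), and that of Pole2 without control 5 or knockout 2 or 3 (-0.18 to -0.17, edgeR adjusted p = 0.0504 to 0.0514). Without litter A the calls of Ccne1, Pole2, Clspn and Pold4 were lost (edgeR adjusted p = 0.0774, 0.212, 0.0837 and 0.117). With only the controls labelled without Cre, those of Ccne1, Pole2 and Clspn were lost (edgeR adjusted p = 0.113, 0.14 and 0.0671). Ccne2 was at 39.8, 34.4, 31.8, 31.7 and 37.7 CPM in controls and at 36.01, 36.9, 34.7, 38.6 and 37.7 CPM in knockouts and did not pass (log2 fold change 0.07, edgeR adjusted p = 0.491).

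Genes of G2/M and mitosis differed from this pattern in their counts. Of 28 such genes 17 were called lower, 0 higher and 11 neither, with a median log2 fold change of -0.20. The share called was 60.7%, against 35.2% of all genes and 44.4% of the genes at least as abundant as the lowest member. The members had 7 falls, 4 rises and a median of -0.06. Knockout and control libraries did not overlap for 16 of the 28 G2/M genes and for 6 of the 40 members. The same held for 25.3% of all genes and for 2440 of the 7376 genes at least as abundant as the lowest member. In sum the G2/M genes were at 6093 to 6659 CPM in controls and 5395 to 5565 CPM in knockouts, without overlap, and the members at 5312 to 5940 CPM in controls and 5285 to 5643 CPM in knockouts, with overlap. The difference between these lists was not tested.

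**Figure D4:**
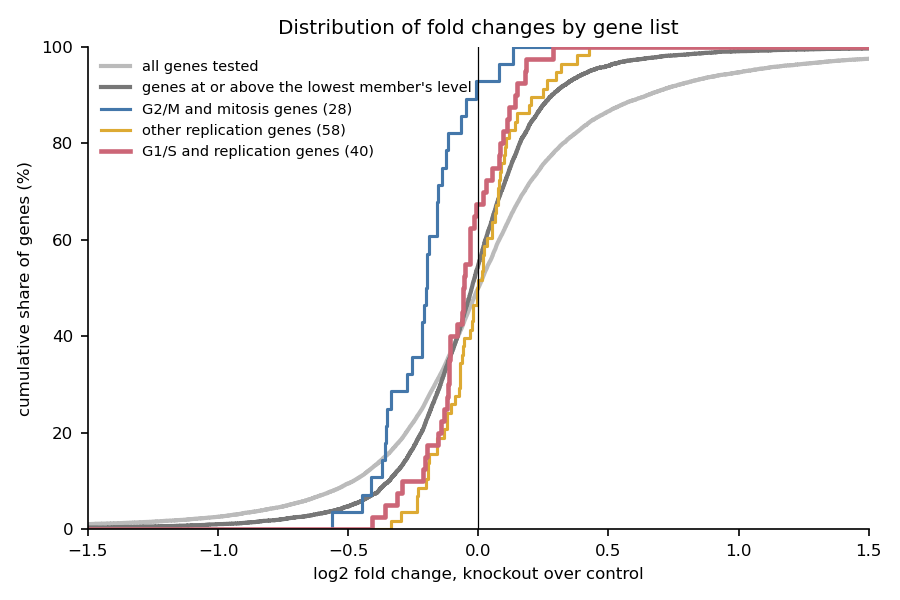
Cumulative share of genes, in percent, by log2 fold change, knockout over control, for the 40 members, 58 other replication genes, 28 G2/M genes, the genes at least as abundant as the lowest member and all genes tested, on an axis that ends at 1.5 log2 units either way. The members and the other replication genes lie around medians of -0.06 and 0.00, and the G2/M genes around -0.20.

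Across the 5 libraries of a group, most members varied less among knockouts than among controls. The controls carried mixed Cre and flox labels and the knockouts a single one, and the difference in spread was not tested. The coefficient of variation had a median of 7.60% over the members in controls and 4.90% in knockouts, and was the lower in knockouts for 33 of 40 members, against 59.9% of the genes at least as abundant as the lowest member. The members as a set also shifted from library to library, so the count of 33 of 40 repeats in part the same few embryos. Their median deviation from the mean of the 5 controls was 0.02, -0.07, -0.09, 0.09 and 0.04 log2 units in controls 1 to 5. In knockouts 1 to 5 that deviation was -0.06, -0.09, -0.01, -0.04 and -0.08. Control 3 was thus the lowest of the 10 libraries, control 2 lay within the range of the knockouts, and controls 1, 4 and 5 lay above it.

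The difference of knockout and control varied from litter to litter for the members as a set. Litters B, C and D hold 1 library of each group, so litters and single embryos cannot be told apart there. The median difference of knockout and control was -0.06 log2 units in litter A, 0.07 in B, -0.11 in C and -0.14 in D, and 16, 26, 10 and 8 of the 40 members were higher in the knockouts of those litters. For the G2/M genes the median was negative in all 4 litters, at -0.27, -0.16, -0.22 and -0.17. Of the 11 members that passed, 10 had the sign of their call in each of the 4 litters, the exception being Rfc3 at 0.00 in litter B, where 93.3% of all called genes did so. The range over litters was widest for Orc1, at -0.39, -0.03, -1.07 and 0.02 in litters A to D, and narrowest for E2f8, at 0.07, 0.00, -0.01 and 0.04.

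**Figure D5:**
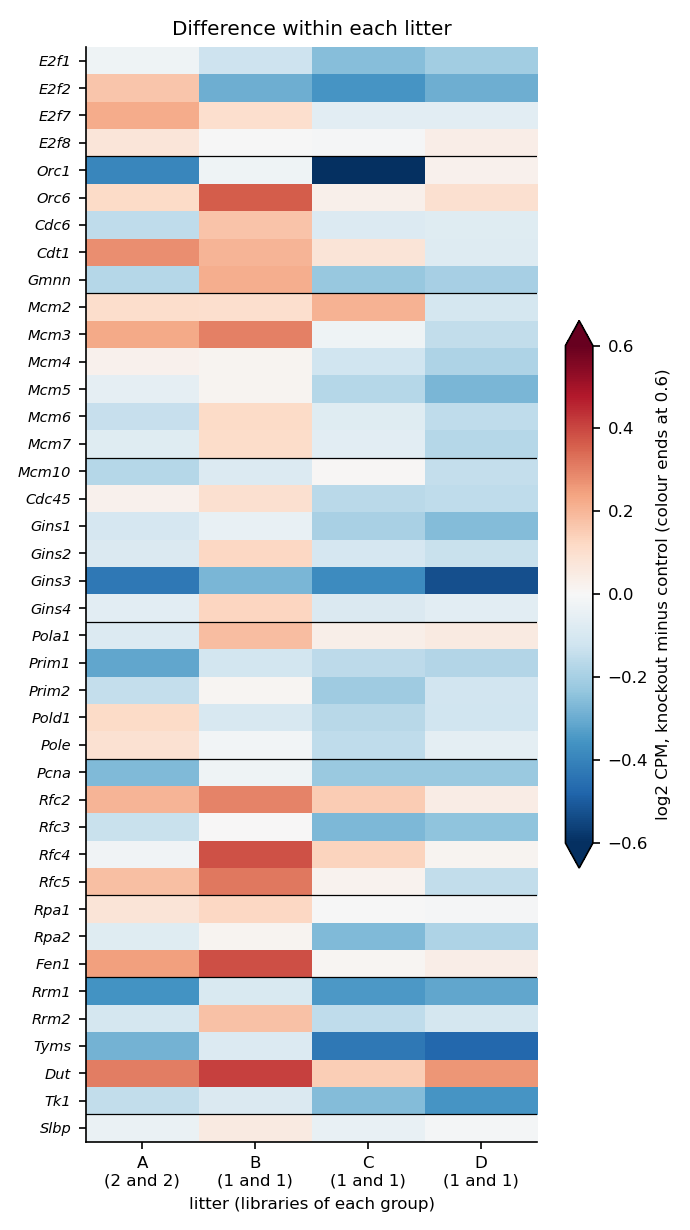
Colour gives the difference of log2 CPM, knockout minus control, within each of the litters A to D for every member; litter A holds 2 libraries of each group, the others 1, and the colour ends at 0.6, which Orc1 exceeds in litter C. Litter B lies highest, with 26 of 40 members above 0, and litter D lowest, with 8.

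The count of members called depended on which libraries entered. When control 1, 2 or 3 or knockout 1, 3 or 4 was left out, 2 members were higher instead of 4. These counts were not set against the calls over all genes in the same fits. Without litter A, 3 against 3, 1 member was higher and 3 were lower, where 19.6% of all genes were called. With only the controls labelled without Cre, 2 were higher and 3 lower, where 27.1% of all genes were called. The 4 members Gins3, Rrm1, Tyms and Dut passed the test in the same direction in all 25 alternative analyses, with log2 fold changes of -0.45 to -0.35, -0.34 to -0.24, -0.37 to -0.26 and 0.26 to 0.34. Scaled by library size only, which moved the median of all genes to 0.05, 6 members were called higher and 5 lower, where 35.1% of all genes were called, so that 54.5% of the calls among members were rises, against 36.4% with TMM, and the share over all genes went from 51.3% to 62.2%.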

How the data were processed

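RNA of 10 forelimb buds was measured. The authors deposited estimated counts per Ensembl mouse gene, not normalized, which were rounded here to whole numbers because 0.0592% of the values above 0 were whole within 1e-06. The other table that the authors deposited is called FPKM but holds a signal, namely the rounded counts over 1 factor per library. It served for an alternative fit only, as log2 of the value plus 1 or 0.5 (pseudocounts). The submitters' processing notes list mm10, DESeq2 1.16.1, Salmon 0.8.2 and R 3.4.1 without their roles. Symbols and positions came from GENCODE M21 (GRCm38, the assembly of mm10), in which 47224 of 47729 IDs had a symbol. RefSeq gave the promoter windows.

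In edgeR 4.0.16 (R 4.3.3), genes were kept by filterByExpr with a count of at least 10 and a total of at least 15, libraries were scaled by TMM, and knockout was tested against control without covariates (glmQLFit, glmQLFTest), adjusted by Benjamini-Hochberg over 20562 genes at a threshold of 0.05. The SE is the absolute log2 fold change over the square root of the F statistic, and 95% intervals use it with the t quantile of the fit. Positions printed are in GRCm38. The fit was tested on simulated data. Totals were 33274855 to 49881126 counts, and the biological coefficient of variation was 16.4%. Between any pair of libraries of a group, chi-square over its degrees of freedom was 17.7 or more, so no library was a duplicate. Per the labels, same-numbered control and knockout libraries share a litter. Their deviations from the group means correlated across genes at -0.01, 0.16, -0.02, 0.04 and 0.20 for numbers 1 to 5, and blocks by number and by litter were fitted as alternatives, beside DESeq2 1.42.0, limma 3.58.1, other scalings and filters, and libraries or litters left out.

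The members and lists were chosen with earlier results of these data known. Members past the threshold were named with every library, and of the others in a role the most abundant one and a few preset genes. Orc1, with its values in every library, was added after they were seen. Of the other replication genes, up to 5 with the smallest adjusted p were named in each direction.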

Additional observations from a re-analysis of the deposited data

Results flagged for a closer look

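In 2 of 80 groups of 5 libraries, 1 for each member and condition, a single library stood far from the other 4, its gap to the nearest being over 0.71 of the whole range. Chance flags about 1 group in 20, which would be about 4 here. For E2f1, knockout 5 held 39.1 CPM, whereas the remaining knockouts ranged from 42.0 to 42.9 CPM. Dut was at 136.5 CPM in control 4 and between 113 and 120.0 CPM in the other controls, and even that library lay below every knockout.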

How the results depend on the processing

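Across 25 alternatives no called member and no called gene among the other replication genes changed sign. Gins3, Rrm1, Tyms and Dut were called in all 25. Without litter A, 3 against 3, 4023 genes were called in all, with 1 member higher and 3 lower, and 4 other replication genes higher and 4 lower, Asf1b among them, which did not pass with all libraries. Calls of Prim1, Pcna and Rfc2 were among those lost there (edgeR adjusted p = 0.181, 0.183 and 0.125). With controls labelled without Cre only, 2 members were higher and 3 lower, and 3 other replication genes were lower. Members called higher were also 2 without a filter on low counts, without litter B and without the 2 libraries with high Xist (control 1 and knockout 3, where 5 were lower, Prim1 and Pcna being lost), and 2 to 4 with single libraries left out. Without litter C or D 5 members each were lower, Tk1 and Rfc3 being lost. Without litter B 5 other replication genes were higher, and scaled by library size only 4 were lower. The cause of these changes was not tested, but leaving out litters leaves fewer libraries. With the replicate number as a block 3 members were higher and 6 lower, the calls of Orc6 and Rfc3 being lost, and with litter as a block 3 were higher and 7 lower, that of Orc6 being lost. The blocks changed no other call of a member. DESeq2 called 4 members higher and 9 lower, with Gins1 and Prim2 added, and with scaling by library size only Cdt1 and Rpa1 passed as higher. Among alternatives, the share of all genes called is given above only for litter A left out, controls labelled without Cre and scaling by size. In the other alternatives the counts of members were not set against the calls over all genes, which may have moved alike. With 5 libraries a group, differences of variable members such as Orc1 could not be resolved, and not only small ones. The log2 fold change of Orc1 was -0.36 with an interval from -0.81 to 0.10, so a larger fall was not excluded.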
